A study of Mus musculus with 16 samples.

Results

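Bile acid sensing and conjugation was followed through 9 genes in mouse liver: Nr1h4, Nr0b2, Fgfr4, Klb, Hsd3b7, Akr1d1, Amacr, Slc27a5 and Baat. They were found on the array by gene symbol, each was read from its probe of strongest average liver signal, and all 9 were among the 19363 genes that could be tested. The 16 animals were C57BL/6BomTac offspring. Their dams were kept in filtered air or in UV-Titan, a coated nanoparticle form of titanium dioxide, at about 42 mg/m3 for 1 hour a day over gestation days 8 to 18. There were 3 female controls, 5 female UV-Titan, 4 male controls and 4 male UV-Titan animals, with 1 two-colour array each, liver RNA in red and a universal mouse reference RNA in green. The labels leave it unsaid whether an animal was killed as a newborn on postnatal day 2 or at weaning on postnatal days 23 to 24, and which animals shared a litter, so that p-values measure the spread between these animals only. RNA came from random pieces of whole liver, in which fewer cells of a type and less RNA per cell cannot be told apart.

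Bile acids are made from cholesterol in hepatocytes, and the pathway is held in check by its products. Bile acids bind the nuclear receptor FXR, encoded by Nr1h4, which switches on Nr0b2, and the Nr0b2 product SHP, a repressor without a DNA-binding domain, lowers transcription of Cyp7a1 and Cyp8b1. A second arm runs through the gut hormone FGF15, which acts on the liver receptor FGFR4 together with its co-receptor beta-Klotho, encoded by Klb, and also lowers Cyp7a1. Before export to bile, bile acids are joined, as coenzyme A esters, to taurine or glycine by the enzyme encoded by Baat. The ligase encoded by Slc27a5 makes such esters from free bile acids.

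Probe sequences are shown for the genes with the largest differences in females. Both Baat probes are included, since the large Baat difference rested on the local background of a spot of its brighter probe. They are written 5′ to 3′ as the array files give them, all in lower case because no base is singled out. The brighter Baat probe, A_51_P245123, is given by its first 30 bases, and the second Baat probe, A_52_P43150, lies at chr4:49503875-49503934 on the minus strand of build mm7. The Nr0b2 probe A_51_P265338 lies at chr4:132932212-132932271 on the plus strand and the Slc27a5 probe A_51_P289742 at chr7:11575156-11575215 on the minus strand of the same build.
Nr0b2: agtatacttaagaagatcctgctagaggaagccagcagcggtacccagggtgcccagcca
Slc27a5: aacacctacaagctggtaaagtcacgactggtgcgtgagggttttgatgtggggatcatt
Baat, brighter probe: gaatttggaaggggaaacatgttttccatg
Baat, second probe: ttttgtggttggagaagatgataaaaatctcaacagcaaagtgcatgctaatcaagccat
Probe composition differed between them: 55.0% of the Nr0b2 bases were G or C, 48.3% of the Slc27a5 bases, 41.7% of the brighter Baat probe and 36.7% of the second. The files place the brighter Baat probe at chr4:49503287-49503298, a position that covers only 12 of its 60 bases.

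The promoter of Nr0b2 is shown because this gene varied most from animal to animal among the 9 once the Baat background described below is set aside. RefSeq (GRCm38.p6) promoters were found for 6 of the 9 genes, Nr1h4, Nr0b2, Fgfr4, Klb, Hsd3b7 and Akr1d1. The 250 bases before the Nr0b2 start lie at chr4:133553126-133553375 on the plus strand of GRCm38.p6, and capitals mark the letters TCAAGG, which belong to the kind of site read by the nuclear receptor LRH-1 (Nr5a2).
Nr0b2 promoter: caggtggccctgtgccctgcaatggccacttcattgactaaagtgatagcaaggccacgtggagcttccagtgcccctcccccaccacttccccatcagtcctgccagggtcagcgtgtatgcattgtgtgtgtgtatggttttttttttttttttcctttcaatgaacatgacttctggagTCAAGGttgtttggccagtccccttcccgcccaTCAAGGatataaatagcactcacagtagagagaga
Searched on both strands of each 300-base window, TCAAGG starts at -68 and -35 from the Nr0b2 start. It was in 14.4% of 32851 promoters of this length, and 1.32% held it at least 2 times. Among the other promoters it was found in Akr1d1. The half-site AGGTCA of many nuclear receptors was not found in the Nr0b2 window. It was in Akr1d1 and Nr1h4 and in 16.3% of all promoters. In Akr1d1 its match at -210 to -205 shared bases with the TCAAGG match at -213 to -208, both on the minus strand. The FXR-type arrangement, AGGTCA and its inverse TGACCT with 1 base between them, was in none of the 6 windows and in 0.00913% of all promoters. These matches describe letters and were not tested as binding sites.

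In neither sex did a gene of the 9 pass an adjusted p of 0.05 between UV-Titan and control offspring (limma, Benjamini-Hochberg over all 19363 genes). In females 0 of 9 passed on the log2 ratio of liver to reference, where the share over all genes was 0%, and 0 of 9 passed on the liver channel alone, where it was again 0%. The counts in males were 0 of 9 on both measures, against 0% of all genes on each. At an unadjusted p below 0.05 the ratio gave 3 of 9 genes in females, Slc27a5, Baat and Nr0b2, where 6.68% of all genes reached it, and 1 of 9 in males, Amacr, where 4.95% did. On the liver channel alone these counts were 2 of 9 in females, Baat and Nr0b2, against 3.09% of all genes, and 0 of 9 in males, against 3.24%. Baat entered both female counts through 1 spot described below. With spots of marked local background left out, the ratio gave 2 of 9 in females, Slc27a5 and Nr0b2 (6.48% of all genes), and 0 of 9 in males (5.07%), and the liver channel gave 1 of 9 in females, Nr0b2 (3.14%), and 0 of 9 in males (3.26%). An exact permutation test (two-sided, exposure shuffled within a sex) gave an adjusted p of 0.161 at the smallest for the ratio and 0.771 for the liver channel, over 18 tests on each measure. On the ratio 8 of 9 genes had a higher female mean with UV-Titan, where 58.5% of all genes did, and 4 of 9 a higher male mean, where 56.6% did. In the liver channel 3 of 9 were higher in females, against 49.7% of all genes, and 4 of 9 in males, against 50.3%.

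**Figure D1:**
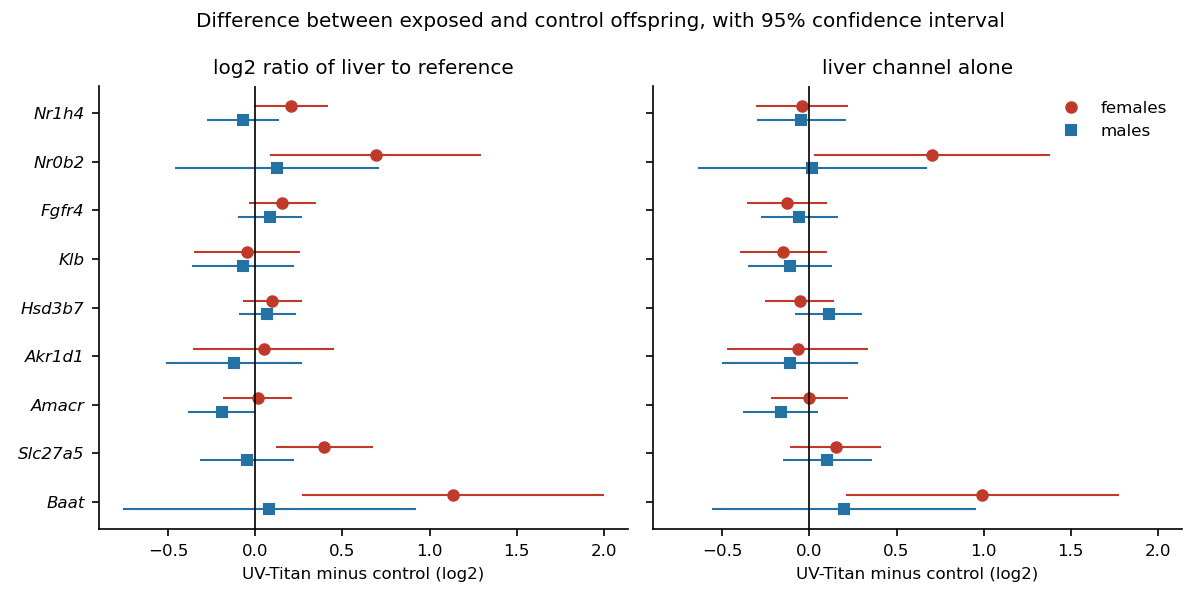
Difference between UV-Titan and control offspring for each gene on the log2 scale, as the log2 ratio of liver to reference (left) and as the liver channel alone (right), with circles for females, squares for males and lines for the 95% confidence interval of the limma fit. Baat and Nr0b2 in females lie farthest from 0 on both measures, at 1.13 and 0.69 on the ratio, and no gene passes the adjusted threshold.

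Liver-channel log2 values of Nr1h4, which encodes the bile acid sensor, were 12.14, 12.30 and 12.13 in the female controls and 12.02, 12.18, 12.15, 12.35 and 12.04 with UV-Titan. The male controls had 12.33, 12.30, 11.87 and 11.97, and the male UV-Titan animals 12.10, 11.82, 12.06 and 12.31. All 4 groups overlapped, and the 16 livers spanned only 1.44-fold. The liver-channel difference was -0.04 ± 0.12 (SE, n = 5 against 3) in females and -0.05 ± 0.12 (SE, n = 4 against 4) in males.

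The Nr1h4 ratio of all 5 UV-Titan females (3.99 to 4.21) was above that of all 3 controls (3.80 to 3.94), unlike the liver channel. The difference on the ratio was 0.20 ± 0.10 (SE; limma adjusted p = 0.764, exact permutation p = 0.0179, the smallest that 56 relabellings allow). Groups did not overlap for 2 of the 9 genes, Nr1h4 and Slc27a5, and for 4.2% of all genes. In the liver channel the females overlapped for all 9 genes, where 2.32% of all genes did not, and the males for all 9 on both measures, where 1.73% of all genes did not in the liver channel and 3% on the ratio. The reference channel of the same spots, which holds the same RNA on every array, differed by -0.19 ± 0.10 on the arrays of UV-Titan females. In males the ratio difference was -0.07 ± 0.10 (SE; limma adjusted p = 0.965).

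Nr0b2, the direct FXR target that encodes SHP, varied most of the sensing genes. Its liver-channel log2 values were 8.00, 8.85 and 8.30 in the female controls and 8.70, 9.77, 9.48, 8.66 and 8.82 in the UV-Titan females. The exposed group held the 2 highest values of all 16 animals, and its 3 lower values lay below the highest control. Male controls read 7.87, 9.09, 8.94 and 8.59, and UV-Titan males 8.63, 8.71, 9.24 and 7.97, with full overlap.

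The female difference in Nr0b2 was 0.70 ± 0.32 in the liver channel, a 1.63-fold higher mean (95% interval 0.02 to 1.38; limma adjusted p = 1). On the ratio it was 0.69 ± 0.29 (95% interval 0.08 to 1.30; limma adjusted p = 0.696). Arrays that shared a slide gave 3 female pairs of 1 control and 1 UV-Titan animal, which differed by -0.15, 1.17 and 0.67 in the liver channel. Left out, control animal 25 took the ratio difference to 0.43 and control animal 35 to 0.89. In males the difference was 0.02 ± 0.31 in the liver channel and 0.12 ± 0.28 on the ratio. The test of the female against the male difference gave 0.69 ± 0.45 in the liver channel (limma adjusted p = 0.975).

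**Figure D2:**
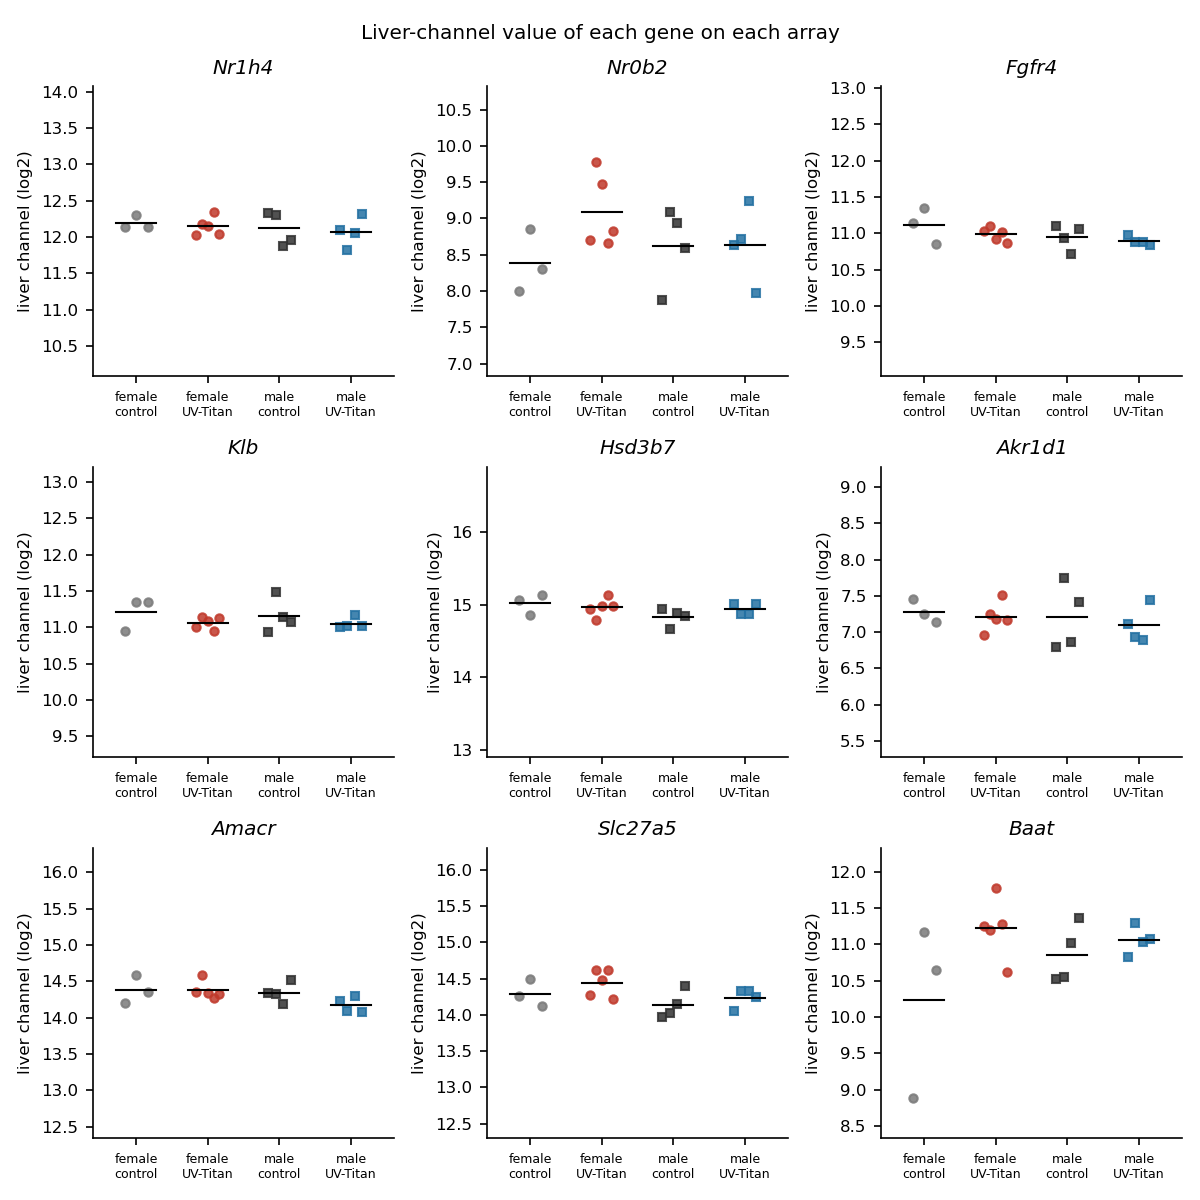
Liver-channel log2 value of each of the 9 genes on each of the 16 arrays, by group, with the group mean as a bar and the same span of log2 units on every vertical axis. Nr0b2 runs from 7.87 to 9.77, 1 female control lies far below the rest for Baat at 8.88, and the other 7 genes span at most 1.93-fold.

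Between animals of a group, Nr0b2 had a standard deviation of 0.51 in the liver channel, where the median over all genes was 0.17, and 98.9% of genes varied less. Nr1h4, at 0.18, was near that median. The 16 livers spanned 3.73-fold in Nr0b2, from male control 31 to UV-Titan female 8. Male control 31 was 1 of the 2 arrays whose exocrine pancreas markers stood out, and its small intestine markers were high as well. The part of other tissue in the low value was not tested.

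Fgfr4 encodes the receptor for the gut hormone and Klb its co-receptor, and no difference in either passed the test. Liver-channel log2 values of Fgfr4 were 11.15, 11.34 and 10.85 in female controls, 10.87 to 11.11 in UV-Titan females (median 11.02), 10.72 to 11.10 in male controls and 10.84 to 10.98 in UV-Titan males. The females differed by -0.13 ± 0.11 in the liver channel and by 0.16 ± 0.09 on the ratio, so the sign turned with the measure. The reference channel stood at -0.22 ± 0.07 on the arrays of UV-Titan females. In males the values were -0.06 ± 0.11 and 0.08 ± 0.09. Dimmer Fgfr4 probes, A_52_P686383 and A_52_P144363, were also well above background in liver on 16 of 16 arrays. They were used only in the mean over probes, and their own differences are not given.

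Klb read 10.94, 11.35 and 11.34 in female controls and 10.95 to 11.14 in UV-Titan females, again with overlap. The male controls ran from 10.93 to 11.49, and the UV-Titan males from 11.01 to 11.16. Differences in the liver channel were -0.15 ± 0.12 in females and -0.11 ± 0.11 in males, and on the ratio -0.05 ± 0.14 and -0.07 ± 0.14 (limma adjusted p = 0.982 and 0.979). Across the 16 animals the co-receptor and the receptor had a Pearson's r of -0.0276 (permutation p = 0.92, adjusted p = 0.92 over 4 relations) and a Spearman's rho of -0.294 (permutation p = 0.27). The sign of r turned with the animals and the treatment of slides. It was -0.519 without the 2 animals farthest from the Klb median and 0.185 with slide means removed. Over 13 arrays, without those high in pancreas or muscle markers, it was 0.125.

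Hsd3b7 encodes the enzyme that oxidises and rearranges the first ring of the sterol, Akr1d1 the reductase that sets the bent shape of that ring, and Amacr the racemase that prepares the side chain for shortening in peroxisomes. Hsd3b7 was the steadiest of the 9, with a within-group standard deviation of 0.12 in the liver channel and a 1.39-fold span over all livers. Its females lay between 14.86 and 15.13 as controls and 14.79 and 15.13 with UV-Titan, a liver-channel difference of -0.06 ± 0.09. Its males differed by 0.11 ± 0.09, and the ratio gave 0.10 ± 0.08 in females and 0.07 ± 0.08 in males.

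Akr1d1 was dim. Its liver signal was well above background on 16 of 16 arrays and its reference signal on 0 of 16, so its ratio is only a lower bound for liver over reference. Liver-channel values ran from 7.13 to 7.46 in female controls, 6.96 to 7.51 in UV-Titan females, 6.80 to 7.75 in male controls and 6.89 to 7.44 in UV-Titan males. The liver-channel differences were -0.07 ± 0.19 in females and -0.11 ± 0.18 in males.

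Amacr had the only unadjusted p below 0.05 among the 9 in males. The male controls read 3.22, 3.29, 3.09 and 3.45 on the log2 ratio and the UV-Titan males 3.12, 2.99, 3.12 and 3.05, with overlap through control 41. The difference of -0.19 ± 0.09 (SE, n = 4 against 4) had a limma adjusted p of 0.951, and all 3 male pairs on a shared slide had the lower value in the exposed animal. With marked backgrounds left out it was -0.12 ± 0.10 and its unadjusted p was above 0.05. The liver channel gave -0.17 ± 0.10. Females differed by 0.01 ± 0.09 on the ratio, and the female-minus-male contrast of 0.21 ± 0.13 had a limma adjusted p of 0.98.

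Slc27a5 encodes the ligase that activates bile acids for conjugation. On the log2 ratio the female controls read 4.53, 4.70 and 4.54 and the UV-Titan females 4.97, 5.32, 4.94, 4.76 and 4.94, with no overlap. The difference was 0.39 ± 0.13, or 1.31-fold (SE, n = 5 against 3; limma adjusted p = 0.656, exact permutation p = 0.0179). Pairs on a shared slide differed by 0.27, 0.40 and 0.23 on the ratio, and by -0.22, 0.35 and 0.37 in the liver channel.

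The liver channel of the same spots showed a smaller difference. Female controls had 14.25, 14.49 and 14.13 and UV-Titan females 14.27, 14.62, 14.48, 14.63 and 14.22, which overlapped, with a difference of 0.15 ± 0.12 (limma adjusted p = 1). The reference channel was at -0.21 ± 0.16 on the arrays of exposed females, and quantile normalisation of the ratios between arrays left 0.07. Males differed by -0.05 ± 0.13 on the ratio and 0.10 ± 0.12 in the liver channel. The test of the female against the male difference on the ratio gave 0.44 ± 0.18 (limma adjusted p = 0.98), the only one of 9 with an unadjusted p below 0.05, where 4.26% of all genes had one. The liver channel had 0 of 9, against 2.83% of all genes.

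Markers of hepatocytes, the main cell type of the liver, were set beside these values. On the ratio, 9 of 9 hepatocyte markers were higher in UV-Titan females (median 0.53). In the liver channel 5 of 9 were higher (median 0.01), and in the reference channel 1 of 9 (median -0.46). With each marker centred on its mean over all arrays, the average liver-channel level of these markers ran from -0.08 to -0.03 in female controls. In UV-Titan females it ran from -0.08 to 0.20. The part of the reference channel in the ratio differences of single genes was not tested.

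Baat encodes the enzyme that joins bile acids to taurine or glycine, and its brighter probe gave the largest female difference among the 9 genes. Liver-channel log2 values were 8.88, 11.17 and 10.65 in the female controls and 11.26, 11.19, 11.77, 11.28 and 10.62 in the UV-Titan females. Control animal 25 lay 3.12-fold below the next lowest of all 16 arrays. The male controls read 10.52, 10.55, 11.01 and 11.36 and the UV-Titan males 10.82, 11.30, 11.04 and 11.08. The females differed by 0.99 ± 0.37 in the liver channel (limma adjusted p = 1) and by 1.13 ± 0.41 on the ratio, or 2.20-fold (limma adjusted p = 0.694), and the males by 0.20 ± 0.36 and 0.08 ± 0.40.

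The low value rested on the local background of 1 spot. On the array of control animal 25 the scanned red signal of the probe was 2263, inside the range of 1268 to 3946 over all arrays, but the local red background was 1853, where the other 15 arrays had 68 to 85. The scanner software had marked that background as an outlier, and also the lowest one, 68 in male control 43. With spots so marked left out, the ratio difference was 0.35 ± 0.23 in females and 0.25 ± 0.21 in males, and with no background subtraction the female difference was 0.30 ± 0.22. The authors' deposited table of log2 ratios gave 0.27 ± 0.21. In the opposite direction, leaving out control animal 35 took the female ratio difference from 1.13 to 1.66.

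The second Baat probe gave a reading of the same animals with an ordinary background. In the liver channel control animal 25 had 8.23 on this probe, beside 8.20 and 8.00 in the other controls. The UV-Titan females had 8.34, 8.15, 8.57, 8.50 and 7.84. On the ratio of this probe control animal 25 was still the lowest female, at 1.39 beside 1.78 and 1.87 in the other controls. The UV-Titan females ran from 1.43 to 2.33. The female difference was 0.13 ± 0.19 in the liver channel and 0.26 ± 0.21 on the ratio. The male difference was 0.17 ± 0.18 in the liver channel. Its reference signal was well above background on 0 of 16 arrays, and that of the brighter probe on 15 of 16.

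**Figure D3:**
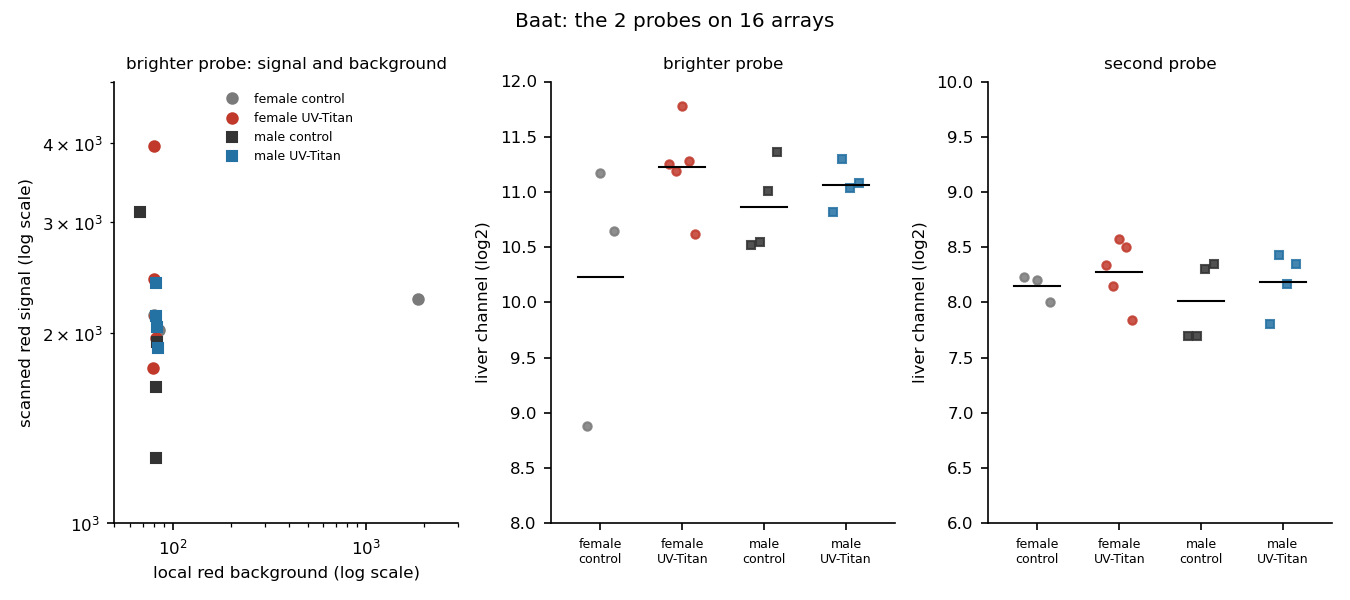
Left, scanned red signal of the brighter Baat probe against the local red background, both on log scales, for the 16 arrays, and right, liver-channel log2 values of the brighter and the second probe by group with the mean as a bar. One female control stands apart at a background of 1853, its value is the lowest for the brighter probe, and for the second probe it lies among the others at 8.23.

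Between the sexes, over both exposures, no difference in the 9 genes passed the test. On the ratio 0 of 9 passed the threshold (limma), where 0.0465% of all genes did, and on the liver channel 0 of 9, where 0.0362% did. At an unadjusted p below 0.05 there were 0 of 9 on each, against 4.3% of all genes on the ratio and 2.17% in the liver channel. With spots of marked background left out, the ratio gave 1 of 9, Amacr (4.41% of all genes), and the liver channel 0 of 9 (2.29%). Slc27a5 had the largest departure in the liver channel among the genes not touched by the marked background, with males at -0.18 ± 0.09 against females. The average of the female and the male UV-Titan differences gave 0 of 9 on each measure, against 0% of all genes, and at an unadjusted p below 0.05 it gave 1 of 9, Baat, on each, where 7.05% of all genes reached it on the ratio and 2.94% in the liver channel. That count of 1 rested on the marked Baat background of control animal 25, and with marked spots left out it was 0 of 9 on each measure, against 7.05% and 2.99% of all genes. For the female-minus-male contrast 0 of 9 passed on each measure, against 0% of all genes.

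The level of Nr0b2 was set against Cyp7a1, the rate-limiting enzyme of bile acid synthesis, and Cyp8b1, the enzyme that adds a hydroxyl group to make cholic acid, and both correlations were negative. Over 16 animals in the liver channel, Pearson's r with Cyp7a1 was -0.533 (permutation p = 0.034, adjusted p = 0.068 over 4 relations) and Spearman's rho -0.503 (permutation p = 0.051). With Cyp8b1, r was -0.547 (permutation p = 0.029, adjusted p = 0.068) and rho -0.482 (permutation p = 0.061). Neither relation passed 0.05 after adjustment. The permutations shuffled all 16 animals together, without regard to group. Group means were not removed, so r and p mix differences between groups with those within them. Leaving out the 2 animals farthest from the median of Nr0b2 gave r = -0.695 and -0.367, and removing slide means gave -0.41 and -0.623.

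The arrays with RNA of other tissues touched the first of these relations. Male control 31 had both the lowest Nr0b2 and a Cyp7a1 value of 9.51, near the low end. Without the 2 arrays with pancreas markers and the 1 with muscle markers, r over the other 13 was -0.82 with Cyp7a1 and -0.627 with Cyp8b1. Nr1h4 and its target Nr0b2 had r = -0.192 (permutation p = 0.48, adjusted p = 0.64) and rho = -0.179 (permutation p = 0.5), with r = -0.204 without the 2 animals farthest from the Nr1h4 median. UV-Titan female 8, highest in Nr0b2, had the lowest Cyp7a1 (9.32) and the lowest Cyp8b1 (8.49) of the 16.

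**Figure D4:**
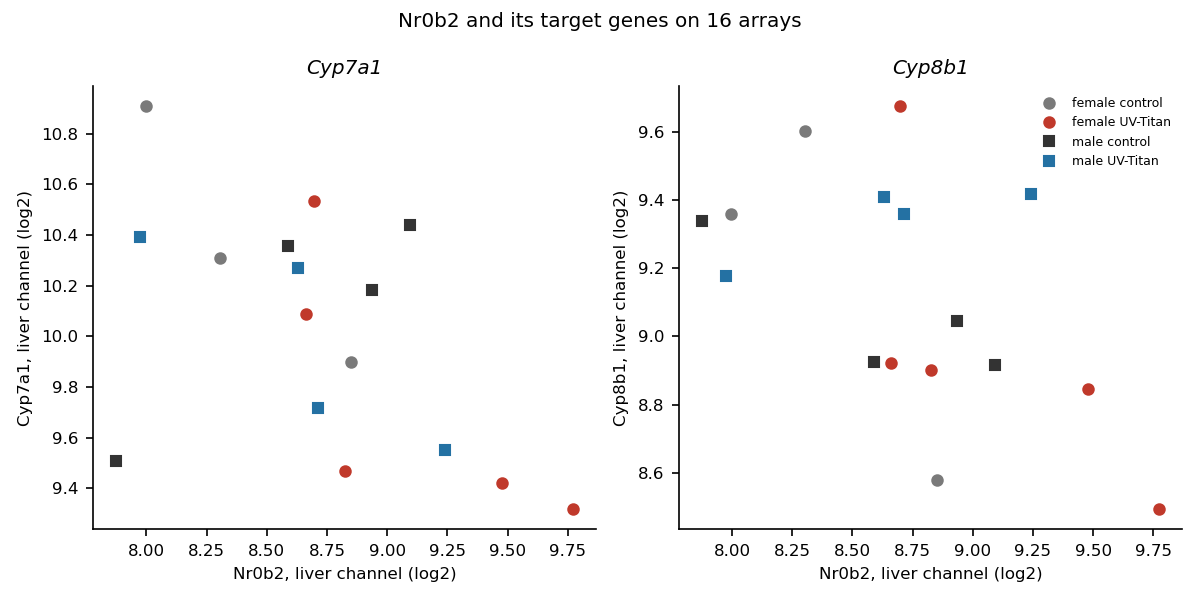
Liver-channel log2 value of Cyp7a1 (left) and Cyp8b1 (right) against Nr0b2 for 16 animals, with circles for females, squares for males, and colours for the groups. The points run downward from left to right, with male control 31 at the lower left of the Cyp7a1 panel (7.87 and 9.51) and UV-Titan female 8 at the lower right of both.

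Between exposed and control animals, Cyp7a1 itself had a female difference of -0.61 ± 0.30 in the liver channel (limma adjusted p = 1), or -0.34 ± 0.32 without control animal 25, and -0.38 ± 0.25 on the ratio (limma adjusted p = 0.847). Cyp8b1 differed by -0.21 ± 0.23 and 0.03 ± 0.18 in females, and the liver-channel value was -0.51 without control animal 35 and near 0 without control animal 40. In males Cyp7a1 stood at -0.14 ± 0.29 in the liver channel and Cyp8b1 at 0.28 ± 0.22.

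The rest of the pathway was described through 5 lists of related genes, and 0 of their members passed the threshold in females or males on either measure (limma). Counts of members with a higher female mean are to be read against 58.5% of all genes on the ratio and 49.7% in the liver channel, and counts at an unadjusted p below 0.05 against 6.68% and 3.09%. Up to 4 genes of each list are named below, and leaving out 1 animal of the sex moved 9 of these 20 female ratio differences and 18 of 20 in the liver channel by over 1.5 times, or across 0. Of 12 tested genes of synthesis, 10 had a higher female mean on the ratio (median 0.10) and 3 an unadjusted p below 0.05. In the liver channel 7 of 12 were higher (median 0.01) and 2 reached that p, 1 higher and 1 lower. Slc27a2, a peroxisomal and endoplasmic reticulum acyl-CoA synthetase, differed by 0.44 ± 0.16 on the ratio in females but 0.13 ± 0.16 in the liver channel. Cyp7b1, which acts on oxysterols, differed by 0.38 ± 0.15 and 0.25 ± 0.11, and by 0.26 ± 0.14 and 0.23 ± 0.10 in males. Without control animal 25 the female differences in Cyp7b1 were 0.14 ± 0.12 and 0.12 ± 0.11. Cyp2c70, which makes muricholic acids in mice, gave 0.30 ± 0.14 and 0.30 ± 0.24 in females, the latter 0.08 without control animal 40 and 0.52 without control animal 35. Cyp39a1, an oxysterol hydroxylase, gave -0.34 ± 0.17 and -0.47 ± 0.19 in males, and -0.18 ± 0.15 and -0.26 ± 0.15 without male control 33, 1 of the 2 arrays with pancreas markers.

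Of 12 tested transporters, 11 had a higher female mean on the ratio (median 0.28) and 2 an unadjusted p below 0.05. In the liver channel 8 of 12 were higher (median 0.16) and 0 reached it. Abcb11, the bile salt export pump, gave 0.53 ± 0.22 on the ratio and 0.16 ± 0.15 in the liver channel, where the value was -0.02 without control animal 40 and 0.33 without control animal 35. Slc10a1, the main bile acid importer of the hepatocyte, gave 0.51 ± 0.24 and -0.16 ± 0.16, a change of sign. Slco1b2, an organic anion importer, gave 0.28 ± 0.12 and 0.04 ± 0.11, and Abcg8, part of the sterol exporter, 0.23 ± 0.17 and 0.16 ± 0.14, or 0.06 and 0.10 without control animal 25.

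Among 12 regulators, 10 had a higher female mean on the ratio (median 0.18) and 6 in the liver channel (median 0.01), with 3 and 1 at an unadjusted p below 0.05. Nr1i3, the xenobiotic receptor CAR, gave 0.29 ± 0.08 on the ratio in females and 0.27 ± 0.12 in the liver channel, and in males 0.05 ± 0.08 and -0.25 ± 0.11. Its liver-channel values were 0.15 in females without control animal 35 and -0.15 in males without UV-Titan animal 17. Nr1h3, the oxysterol receptor LXR alpha, gave 0.30 ± 0.12 and 0.09 ± 0.10 in females, and Ppara, the fatty acid receptor, 0.31 ± 0.14 and -0.10 ± 0.10. Ppargc1a, a coactivator of fasting metabolism, gave -0.56 ± 0.24 on the ratio and -0.47 ± 0.30 in the liver channel in males. Without male control 33 these were -0.35 ± 0.22 and -0.16 ± 0.26.

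The relatives of the receptors and enzymes and the further FXR targets completed the lists. Of 9 tested relatives, 5 had a higher female mean on the ratio (median 0.001) and 7 in the liver channel (median 0.05), with 2 and 0 at an unadjusted p below 0.05. Fgf21, a fasting hormone that also signals through beta-Klotho, gave a ratio difference of 1.17 ± 0.53 in females, with controls at 8.68, 9.76 and 11.98 and UV-Titan females at 10.68 to 12.33 in the liver channel, which overlapped. The ratio difference was 0.52 ± 0.52 without control animal 25 and 1.93 ± 0.48 without control animal 40. Acnat2, a close relative of Baat, gave 0.34 ± 0.11 on the ratio and 0.20 ± 0.11 in the liver channel, and Slc27a4 and Slc27a3, members of the Slc27a5 family, 0.001 ± 0.07 and -0.18 ± 0.10 on the ratio. The 4 other FXR targets had 3 higher female means on the ratio (median 0.20) and 2 in the liver channel (median -0.01), with 2 and 1 at an unadjusted p below 0.05. Fetub gave 0.39 ± 0.13 on the ratio and 0.32 ± 0.11 in the liver channel, and 0.72 and 0.59 with marked backgrounds left out. Apoc2 gave 0.44 ± 0.19 and -0.03 ± 0.14, Sdc1 -0.16 ± 0.09 and -0.09 ± 0.12, and Pltp 0.002 ± 0.09 and 0.01 ± 0.11. Over all genes tested the female median was 0.02 on the ratio and -0.001 in the liver channel.

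**Figure D5:**
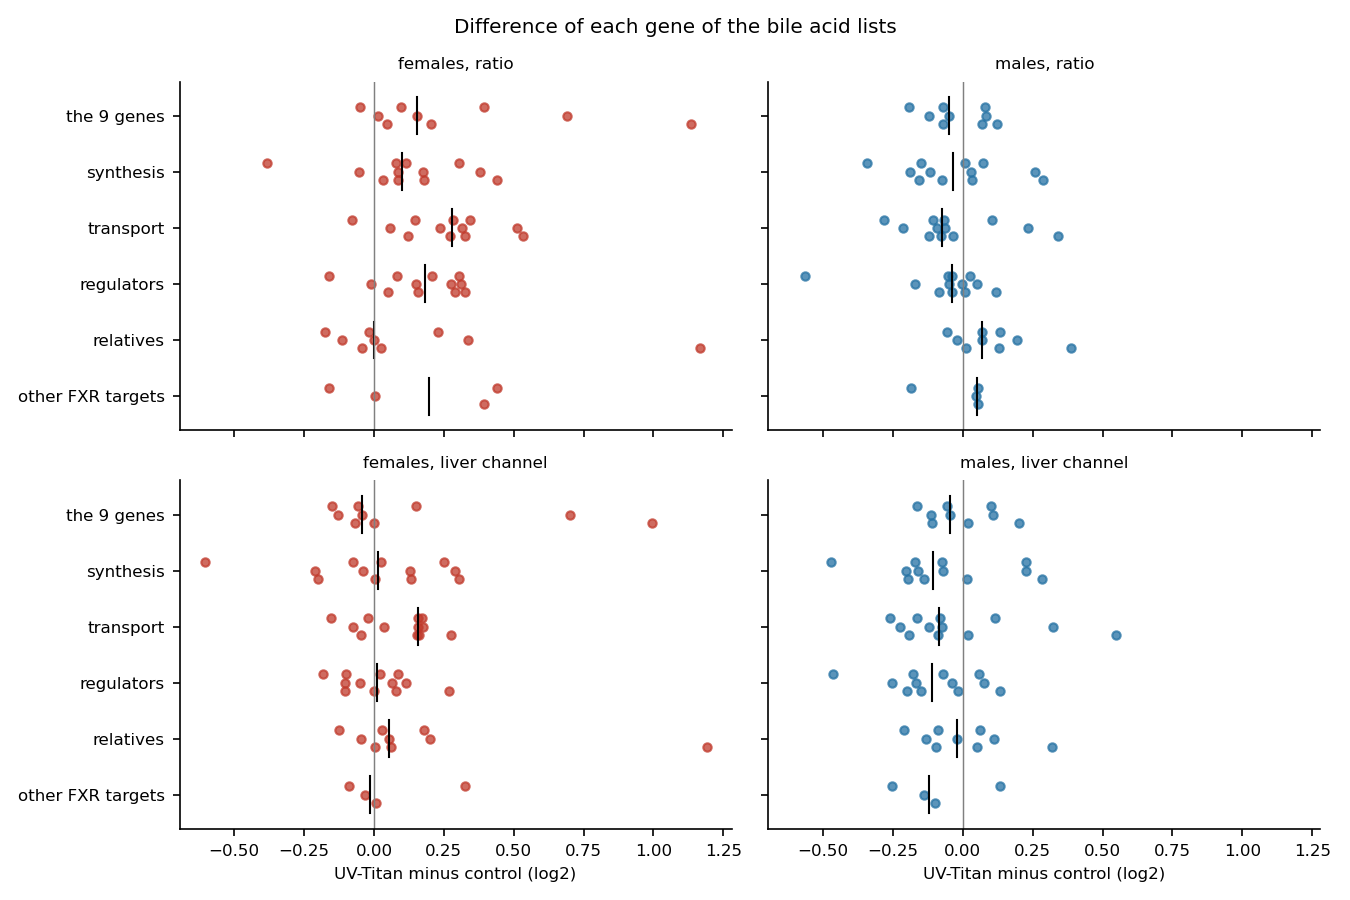
Difference between UV-Titan and control offspring for every tested gene of the 5 lists and the 9 genes, on the log2 scale, in females (left) and males (right), from the ratio (top) and the liver channel (bottom), with a bar at the median of each list. The female ratio medians lie above 0, from 0.001 for the relatives to 0.28 for transport, and those of the liver channel lie nearer 0 except for the relatives, at 0.05. Fgf21 stands apart at 1.17 on the ratio, and at 0.52 without control animal 25.

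Likeness across the 16 animals was described by the gene, outside the 9, with the highest Pearson's r in the liver channel, out of 19326 genes with a value on every array. The highest was 0.924 between Akr1d1 and Ppip5k2. Hsd3b7 was most like Akr1c6 (0.872), Slc27a5 most like Cyp2a12 (0.864, and 0.95 on the ratio), Amacr most like Il17rc (0.869) and Nr1h4 most like Pex7 (0.882). Klb was most like Cyp4a10 (0.863), but on the ratio that pair had r = -0.0768. Nr0b2 was most like an unnamed transcript (0.901), and Fgfr4 like Olfr397 (0.871), which was well above background on only 3 arrays. For Baat the top value of 0.851 fell to 0.276 without the 2 arrays farthest from its median, which include control animal 25. These r values are maxima over many genes measured on shared arrays and slides.

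The libraries bear on these results in a few ways. Between 57.7% and 67.1% of spots were well above background in the liver channel, and 0 were saturated. Hepatocyte markers had a median log2 ratio of 4.53 to 5.74 on the 16 arrays, in the direction of liver in red, although the label fields name the dyes the other way round from the labelling protocol. Exocrine pancreas markers (10 tested) stood at 3.30 and 1.89 in male controls 31 and 33, against -0.53 to -0.17 in UV-Titan males and -0.49 to -0.25 in females. Small intestine markers (3 tested) stood at 1.45 in male control 31, against -0.44 to 0.19 on the other arrays. Muscle markers (7 tested) stood at 2.96 in UV-Titan male 5, against -0.42 to 0.49 on the other arrays. Without male controls 31 and 33 the male liver-channel differences of Nr1h4, Nr0b2 and Baat became 0.15, -0.12 and -0.13. Granulocyte markers were higher in UV-Titan females for 9 of 9 genes in the liver channel (median 0.43, -0.55 to -0.12 in controls against -0.20 to 0.30). Platelet markers were higher for 8 of 8 (median 0.48, -0.34 to -0.27 against -0.07 to 0.26). In UV-Titan males 9 of 9 granulocyte markers (median 0.16) and 8 of 8 platelet markers (median 0.20) were also higher in the liver channel. The part of these markers in the differences of the 9 genes was not tested.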

How the data were processed

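Scanner files of 16 arrays, made with Agilent Feature Extraction 9.5.3.1 per the labels' protocols, hold uncorrected mean and background intensity values for red and green, per the file headers, and processed ones. A separate table deposited by the authors holds log2 ratios. How it was normalised is not given in the sources used here, and its column medians were -0.045 to -0.0375.

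Spots marked as feature outliers (90 to 135 per array) were left out. Both channels were corrected with normexp (offset 50). Ratios were then normalised by loess within arrays, and the liver channel alone by quantiles between arrays, with limma 3.58.1 (R 4.3.3). Replicate spots were averaged. Genes were kept if the liver signal of a probe cleared the scanner's background test on 3 arrays or more. One model held the 4 group means of all 16 arrays, with Benjamini-Hochberg adjustment over 19363 genes, a threshold of 0.05 and 95% intervals. Relations across animals used 100000 permutations of all 16 animals, without regard to group. The array number limits the precision. The procedure was tested on simulated data.

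Symbols came from a RefSeq table for 12356 genes, and 7007 kept the array's name. The text names the 9 genes, up to 4 genes a list with the smallest unadjusted p in females or males, Cyp7a1 and Cyp8b1 as targets of Nr0b2, and the most alike gene of each member. Members, lists and tests were chosen with earlier results of these data known. Of the list genes, 9 were not tested because they were dim or not on the array. Alternatives were background, normalisation, probe, filter, slide or scan day as a block, array weights, 1 sex alone and leaving out arrays. Leaving out marked backgrounds, the second Baat probe, the relations without 3 arrays and the list genes without single animals were chosen after seeing the data.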

Additional observations from a re-analysis of the deposited data

Results flagged for a closer look

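Among 54 sets of a gene, measure and group with 4 or 5 animals, 3 held an animal far from the others of its group, where about 1 in 20 would by chance. Fgfr4 had a log2 ratio of 2.99 in UV-Titan female 8, while the other 4 of the group lay between 2.74 and 2.78. Amacr had a liver-channel value of 14.59 in the same animal, against 14.27 to 14.36. Klb had a liver-channel value of 11.16 in UV-Titan male 5, the animal with muscle markers, against 11.01 to 11.02. The Baat spot of female control 25 could not be examined in this way, since that group has 3 animals.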

How the results depend on the processing

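With 3 to 5 animals a group and 1 array each, small differences could not be resolved, and the dim reference signal of Akr1d1 and of the second Baat probe limits their ratios. Besides the main setting, 31 settings of the ratio and 30 of the liver channel were run. They gave 2611 values of the 9 genes over all 5 comparisons, and 0 passed the threshold in limma. The smallest adjusted p was 0.204, for Slc27a5 in females with scan day as a block. Over the 1066 values of the female and male comparisons, 75 had the opposite sign to the main value. In females the signs of Slc27a5, Baat and Nr0b2 held under every setting run on both measures, over 0.070 to 0.45, 0.26 to 1.66 and 0.43 to 0.89 on the ratio and 0.067 to 0.43, 0.13 to 1.46 and 0.51 to 0.94 in the liver channel. In males the sign of Amacr held over -0.25 to -0.12 and -0.26 to -0.075, and that of Hsd3b7 over 0.020 to 0.14 and 0.019 to 0.14. Animal numbers pair no animals, since the groups compared share none. The slide, which does join control and exposed animals, entered as a block, and the differences of animals on a shared slide stand beside Nr0b2, Amacr and Slc27a5.

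These log2 ratio differences changed sign, and the cause was not tested. In females the values were Amacr -0.015 and Akr1d1 -0.10 without background subtraction, Akr1d1 -0.091 from the processed signals, and Amacr -0.022 and Akr1d1 -0.10 from the deposited ratios. Quantile normalisation between arrays gave Hsd3b7 -0.10, Amacr -0.19, Nr1h4 -0.042, Fgfr4 -0.003 and Akr1d1 -0.032 in females, and Slc27a5 0.018 in males. The liver channel alone gave Hsd3b7 -0.057, Amacr -0.0004, Nr1h4 -0.044, Fgfr4 -0.13 and Akr1d1 -0.068 in females, and Slc27a5 0.10 and Fgfr4 -0.058 in males. The mean over probes gave Klb 0.0033, slide as a block Amacr -0.023 and Klb 0.040, scan day as a block Amacr -0.014, and array weights Akr1d1 -0.0092, all in females. In males the processed signals gave Baat -0.49 and Akr1d1 0.054, scan day as a block Slc27a5 0.0026, and the fit without male controls 31 and 33 Nr1h4 0.091 and Baat -0.20.

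Liver-channel differences changed sign as follows. Centring arrays on the median gave Hsd3b7 0.21, Amacr 0.28, Nr1h4 0.22, Klb 0.10 and Fgfr4 0.13 in females and Nr0b2 -0.015 in males. The ratio gave Hsd3b7 0.10, Amacr 0.014, Nr1h4 0.20, Fgfr4 0.16 and Akr1d1 0.047 in females and Slc27a5 -0.049 and Fgfr4 0.083 in males. Array weights gave Amacr 0.014 in females, and leaving out marked backgrounds Amacr 0.013. Without male controls 31 and 33 the male values were Slc27a5 -0.033, Nr1h4 0.15, Baat -0.13, Fgfr4 0.0061 and Nr0b2 -0.12.

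Leaving out each animal in turn moved some values across 0. On the ratio the ranges in females were -0.061 to 0.11 for Amacr, -0.17 to 0.043 for Klb and -0.061 to 0.13 for Akr1d1. In males they were -0.14 to 0.070 for Slc27a5, -0.21 to 0.026 for Klb, -0.031 to 0.25 for Baat, -0.10 to 0.28 for Nr0b2 and -0.24 to 0.056 for Akr1d1. In the liver channel the female ranges were -0.090 to 0.10 for Amacr, -0.093 to 0.011 for Nr1h4 and -0.14 to 0.019 for Akr1d1. The male ranges were -0.13 to 0.038 for Nr1h4, -0.23 to 0.24 for Nr0b2 and -0.25 to 0.068 for Akr1d1.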
